A study of Mus musculus with 24 samples.

Results

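The 10 genes described here, Fos, Fosb, Jun, Junb, Egr1, Atf3, Arc, Nr4a1, Ier2 and Dusp1, are immediate early and injury response genes, chosen by name from the 37620 genes of a mouse dorsal root ganglion (DRG) expression table as a check on dissection stress. The table covered 24 samples of whole DRG from C57Bl6 mice aged 6 to 8 weeks, with no treatment, from lumbar (L4-5) or sacral (L6-S1) levels. The groups were lumbar male (5 samples), sacral male (5), lumbar female (7) and sacral female (7), from 13 mice by the numbers in the sample titles, of which 11 gave both levels. Ganglia were dissected into cold Tyrode's solution, the nerve roots were removed and the tissue was homogenized, so that each sample held neurons, glia and whatever blood, vessel and connective tissue remained. The labels place 5 female samples (mice 11, 12 and 13) in batch 1 and the other 9 female and all 10 male samples in batch 2; the study states that part of the adult series was run at a second facility.

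Immediate early genes are transcribed within minutes of depolarization, growth factor or stress signals, because transcription factors that are already present, such as CREB and the serum response factor, are switched on by kinases. Most of their products are transcription factors that then turn on slower genes, and both the transcripts and the proteins are short-lived. In DRG, Fos and Egr1 are used as markers of neuronal activity, while Atf3 and Jun are known to rise in neurons whose axons are cut, so both kinds of gene can also respond to the handling of tissue.

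Among the 10 genes, 4 encode subunits of AP-1, the dimeric activator protein 1 (Fos, Fosb, Jun and Junb). Atf3 encodes a stress-induced factor of the same leucine zipper superfamily, Egr1 a zinc finger factor and Nr4a1 an orphan nuclear receptor. Ier2 encodes a small nuclear protein, Arc a protein of the postsynaptic density that promotes endocytosis of AMPA receptors, and Dusp1 a phosphatase that switches off MAP kinases. Jun (ENSMUSG00000052684, chr4:94715725-94718913 on mm9) and Egr1 (ENSMUSG00000038418) overlap a gene on the opposite strand, and since the use of strand in the counting is not stated, reads of the 2 partners cannot be told apart. Dusp1 (ENSMUSG00000024190) lies at chr17:26642535-26645464, Nr4a1 (ENSMUSG00000023034) at chr15:101097277-101105223, Junb (ENSMUSG00000052837) at chr8:87500811-87502617 and Atf3 (ENSMUSG00000026628) at chr1:192994175-193007219, all protein coding genes on mm9 and given from the first to the last annotated base.

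The 250 bases before the transcription start are printed for Junb and Nr4a1, the genes that differed most clearly between batches, and for Dusp1, the most even of the 10. The sequences are from RefSeq on GRCm38.p6, in which 7 of the 10 genes were matched, and capitals mark TGACG on either strand, the core of the cAMP response element to which CREB binds.
Junb: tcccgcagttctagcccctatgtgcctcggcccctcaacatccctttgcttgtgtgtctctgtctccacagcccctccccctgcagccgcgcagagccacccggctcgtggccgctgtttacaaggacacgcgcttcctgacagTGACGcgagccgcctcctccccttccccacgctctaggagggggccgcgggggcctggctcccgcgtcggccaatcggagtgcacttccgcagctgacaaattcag
Nr4a1: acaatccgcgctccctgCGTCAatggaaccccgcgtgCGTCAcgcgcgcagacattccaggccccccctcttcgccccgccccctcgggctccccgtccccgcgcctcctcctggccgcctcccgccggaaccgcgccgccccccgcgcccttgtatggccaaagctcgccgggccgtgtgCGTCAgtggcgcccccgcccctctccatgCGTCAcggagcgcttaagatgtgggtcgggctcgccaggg
Dusp1: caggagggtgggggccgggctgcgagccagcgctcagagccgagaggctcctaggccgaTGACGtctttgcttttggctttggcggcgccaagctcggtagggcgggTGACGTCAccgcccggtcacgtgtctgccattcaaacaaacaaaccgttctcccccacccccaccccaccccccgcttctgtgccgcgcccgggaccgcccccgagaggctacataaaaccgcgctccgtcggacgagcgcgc
The windows lie at chr8:84978749-84978998 (minus strand), chr15:101266596-101266845 (plus strand) and chr17:26508473-26508722 (minus strand), respectively. TGACG was found 4 times before Nr4a1, 3 times before Dusp1 (2 of them overlapping within the full palindrome TGACGTCA), 2 times before Fos, and 1 time each before Atf3, Fosb and Junb, whereas the Jun window held none. These letters occurred in 17.9% of 27025 mouse promoter windows of that length, and TGACGTCA in 1.62%. The AP-1 letters TGANTCA occurred in 6.87% of all windows and in none of the 7. A match of letters describes the window and does not show that a factor binds there.

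Levels are given as deposited, in log2 RPKM (log2 of reads per kilobase of gene per M reads, after the authors' batch subtraction), a scale per length on which genes can be compared where the gene lengths hold. The length behind the deposited values equaled the annotated exon length for 9 of the 10 genes, but for Egr1 it was 4484 bases beside 3100 in the annotation, and on the annotated length Egr1 would lie 0.53 higher (mean 2.63). Over all samples the order was Dusp1 (mean 3.97), Jun (3.29), Egr1 (2.10), Nr4a1 (1.26), Atf3 (0.26), Fos (−1.06), Junb (−1.76), Arc (−2.13), Ier2 (−3.12) and Fosb (−3.40). Dusp1 lay above Jun in 21 of 24 samples and Jun above Egr1 in 24 of 24 as deposited (21 of 24 on the annotated length), while at the low end the order of neighbors was not held from sample to sample: Fos lay above Junb in 14, Junb above Arc in 12 and Ier2 above Fosb in 13 of 24 samples. The order also depends on the batch subtraction: before it, the batch 2 median of Nr4a1 (0.844 RPKM) lay below that of Atf3 (0.983) and the median of Junb (0.154) below that of Arc (0.319). The median number of reads per library was 62.5 for Fos and 25 for Fosb, against 628 for Egr1 and 1019 for Jun. No read was recorded for Ier2 in 7 samples, Fosb in 5, Arc in 2 and Junb in 1, all of batch 2. For the tests such blank values were set to 0.5 reads on the scale before the batch subtraction, and the lowest values given here for these genes come from that fill. The subtraction raised batch 2 values of Junb, Ier2 and Arc and lowered those of Fosb. On the deposited scale the fill therefore lies below 0.5 reads for Junb, Ier2 and Arc and above it for Fosb. For Junb, 1 read in sacral female 23 stood at −4.38, while the blank of lumbar female 22 was set at −6.98.

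**Figure D1:**
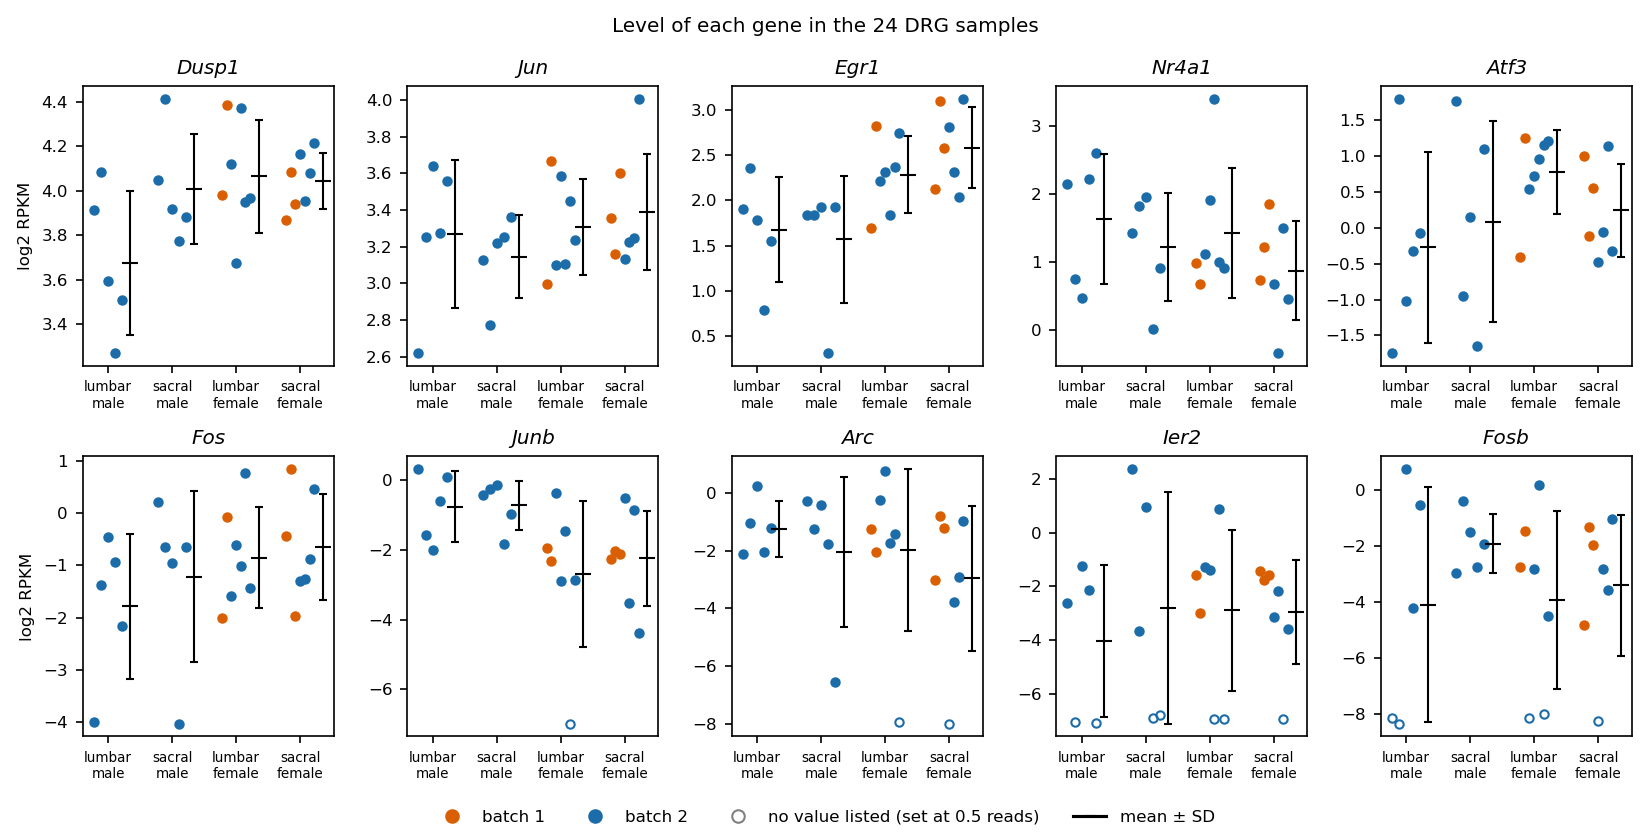
Level of each of the 10 genes (log2 RPKM, vertical axis) in the 24 samples by group, with each point a sample, the line the group mean and blanks placed at 0.5 reads on the scale before the batch subtraction. Dusp1 and Jun form tight bands (SD of at most 0.32 and 0.40 in every group), whereas Fosb, Arc and Ier2 range over several log2 units within a group.

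Dusp1 was the most abundant and the most even. Its values in lumbar male DRG were 3.91, 4.08, 3.59, 3.27 and 3.51, and in sacral male DRG 4.05, 4.42, 3.92, 3.77 and 3.88 (mice 11 to 15 in order). In females it ranged from 3.68 to 4.39 (median 3.98) at the lumbar level and from 3.87 to 4.22 (median 4.08) at the sacral level. Every male was higher in sacral than in lumbar DRG, although the ranges of the groups overlapped. Jun was nearly as even, at 2.62, 3.25, 3.64, 3.27 and 3.56 in lumbar male and 3.13, 2.77, 3.22, 3.25 and 3.36 in sacral male DRG. In females Jun ranged from 3.0 to 3.67 (median 3.23) in lumbar and from 3.13 to 4.01 (median 3.25) in sacral DRG, and all 4 groups overlapped.

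Egr1 was at 1.91, 2.36, 1.78, 0.79 and 1.55 in lumbar male DRG and at 1.84, 1.84, 1.93, 0.31 and 1.93 in sacral male DRG. In female DRG it ranged from 1.69 to 2.82 (median 2.31) at the lumbar level and from 2.03 to 3.1 (median 2.57) at the sacral level. All 7 sacral female values therefore lay above all 5 sacral male values, while the lumbar groups overlapped. Both samples of male mouse 14 were the lowest of their groups.

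Fos was at −3.99, −1.37, −0.46, −0.93 and −2.17 in lumbar male and at 0.21, −0.64, −0.96, −4.02 and −0.65 in sacral male DRG. It ranged from −2.0 to 0.77 (median −1.02) in lumbar female and from −1.97 to 0.83 (median −0.87) in sacral female DRG. The low male values came from different mice, male 11 at the lumbar and male 14 at the sacral level, each with 8 reads. Atf3, the injury marker, was at −1.75, 1.80, −1.02, −0.32 and −0.08 in lumbar male and at 1.77, −0.95, 0.15, −1.64 and 1.09 in sacral male DRG. Its female values ranged from −0.40 to 1.25 (median 0.96) in lumbar and from −0.48 to 1.14 (median −0.05) in sacral DRG. In males Atf3 thus spanned more than 3 log2 units at both levels, and the female values lay inside the male range.

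Nr4a1 was at 2.14, 0.75, 0.47, 2.22 and 2.60 in lumbar male and at 1.43, 1.82, 1.96, 0.00 and 0.91 in sacral male DRG. In females it ranged from 0.67 to 3.4 (median 0.99) in lumbar and from −0.34 to 1.85 (median 0.74) in sacral DRG. Junb was at 0.30, −1.59, −2.02, −0.61 and 0.08 in lumbar male and at −0.43, −0.28, −0.14, −1.85 and −0.99 in sacral male DRG. Its female values ranged from −6.98 (a blank) to −0.39 (median −2.33) in lumbar and from −4.38 to −0.51 (median −2.14) in sacral DRG, mostly below the males with some overlap. These Junb values rest on few reads, 6 to 26 in the male samples and 0 to 16 in the female samples of batch 2.

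The remaining genes were low and irregular. Group means ranged from −4.12 to −1.93 for Fosb, from −2.96 to −1.25 for Arc and from −4.02 to −2.80 for Ier2. Fosb reached 332 reads in the lumbar DRG of male mouse 13 and 206 in that of female mouse 21, beside 5 samples with none. Ier2 reached 136 reads in the sacral DRG of male mouse 11, against 0 or 2 reads in 3 of the other 4 sacral male samples.

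How far the genes varied within groups was described by the SD of each gene around the group means and batch, set beside the same SD for the 12650 genes that passed the filter on low values (a mean log2 RPKM of at least 0 in at least 1 group). The median SD of those genes was 0.486, with a 10th percentile of 0.241 and a 90th of 1.15. For Dusp1 (SD 0.246) only 10.9% of them had a lower SD, and Jun (0.312) was also below the median. Egr1 (0.542) was near the median. Nr4a1 (0.883), Atf3 (1.01), Fos (1.25), Junb (1.5), Arc (2.39), Fosb (2.93) and Ier2 (3.02) exceeded the SD of more than 75% of the tested genes, as they did in batch 2 alone. Fos, Junb, Arc, Fosb and Ier2 did not pass the filter themselves. They are thus set against genes of higher level, and were not compared with genes of like level. The SDs of the 10 genes include differences between animals, low counts and, for Fosb, Arc, Ier2 and Junb, the fill of blanks. They were 4.35 to 14.7 times the SD expected from counting reads alone, with Junb the lowest ratio. That expectation takes reads as independent, but in batch 2 libraries 58.0 to 64.4% of counts of 20 or fewer were even, beside 43.1 to 44.9% in batch 1, so read numbers in batch 2 may overstate independent counts. For Fos, with a mean of 70.2 reads, the ratio was 7.27, and the highest sample was 29.0 times the lowest.

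**Figure D2:**
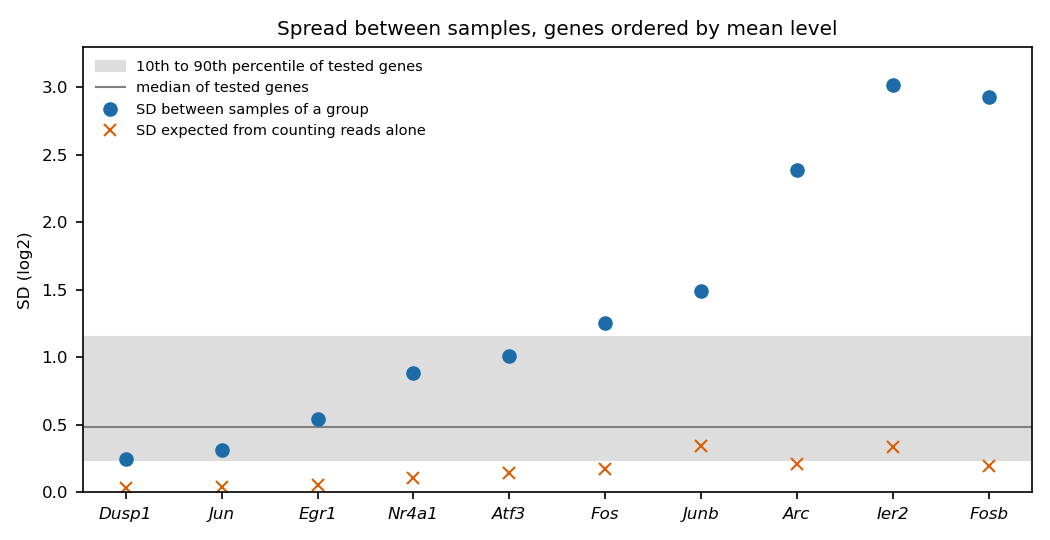
SD of log2 RPKM within groups (vertical axis) for the 10 genes in order of mean level (horizontal axis), with circles the measured SD, crosses the SD expected from counting reads alone, the line the median and the band the 10th to 90th percentile of the 12650 tested genes. The SD rises from 0.246 for Dusp1 to 2.93 for Fosb and 3.02 for Ier2, and all circles lie above their crosses. Fos, Junb, Arc, Ier2 and Fosb did not pass the filter and are not among the tested genes.

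The first comparison asked whether these genes differed between sacral and lumbar ganglia, which were dissected from the same animals. No difference was found for any of the 10. With both sexes pooled, 0 of the 5 genes that passed the filter (Jun, Egr1, Nr4a1, Atf3 and Dusp1) were called at an adjusted p of 0.05 or less (limma, Benjamini-Hochberg adjustment over 12650 genes), against 2.44% of all genes tested. Of the 5 genes below the filter, 0 were called in a limma fit over all 26698 genes with a value, where 0.903% of genes were. None of the 10 had an unadjusted p under 0.05, and 0 were called by limma voom on recovered reads.

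Differences are sacral minus lumbar on the log2 scale. Among the AP-1 genes, Jun had the narrowest estimate, −0.02 (SE 0.13, 95% interval −0.29 to 0.25, adjusted p = 0.97 in limma). Fos differed by 0.38 (SE 0.51, interval −0.67 to 1.44, adjusted p = 0.85 in limma), Fosb by 1.23 (SE 1.17, interval −1.19 to 3.65) and Junb by 0.21 (SE 0.60, interval −1.05 to 1.46). Atf3 differed by −0.08 (SE 0.41, interval −0.92 to 0.76, adjusted p = 0.96 in limma). Dusp1 (0.16, interval −0.06 to 0.38), Egr1 (0.09, interval −0.36 to 0.55), Jun and Atf3 therefore had intervals inside a 2-fold change in either direction. Nr4a1 differed by −0.48 (SE 0.34, interval −1.19 to 0.23, adjusted p = 0.58 in limma), an interval that includes a 2-fold lower level in sacral DRG. The direction was not stable: a Schwann cell marker covariate gave 0.21 for Nr4a1, and blanks left missing gave −0.44 for Fosb. The Arc interval (−1.0, interval −2.97 to 0.98) included a several-fold fall but no rise of 2-fold, and that of Ier2 (0.46, interval −2.03 to 2.96) included several-fold changes both ways.

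**Figure D3:**
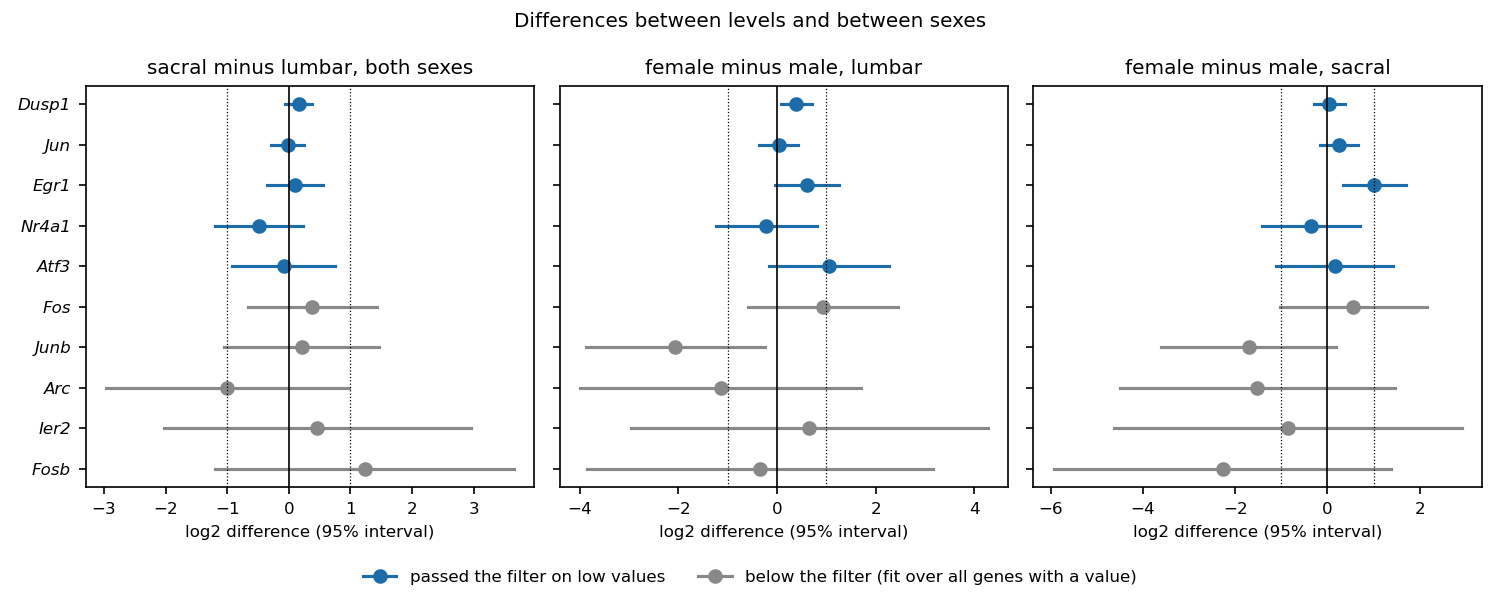
Log2 difference (horizontal axis) of each gene between levels and between sexes, with points the limma estimates, bars their 95% intervals and dotted lines a 2-fold change, blue for genes that passed the filter and gray for the others. The intervals for Dusp1 and Jun are short, those for Fosb, Arc and Ier2 cross several log2 units, and between levels all 10 intervals include 0.

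Within the 11 mice that gave both levels, the direction was mixed. Sacral exceeded lumbar DRG in 8 mice for Dusp1 and Ier2, in 7 for Fos and Egr1, in 6 for Fosb, in 5 for Jun and in 4 for Junb, Atf3, Arc and Nr4a1. The mean paired difference was 0.51 ± 1.93 for Fos (SD, n = 11, exact two-sided sign-flip p = 0.406) and −0.16 ± 1.80 for Atf3 (SD, n = 11, exact p = 0.756). It was 0.12 ± 0.40 for Egr1 (SD, n = 11, exact p = 0.35) and 0.12 ± 0.29 for Dusp1 (SD, n = 11, exact p = 0.213). Fos differed between the levels of a mouse by as much as 4.20 (sacral higher) and −3.09 (lumbar higher). The exact p for Dusp1 was the smallest of the 10, and the smallest that 11 mice allow is 0.000977.

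**Figure D4:**
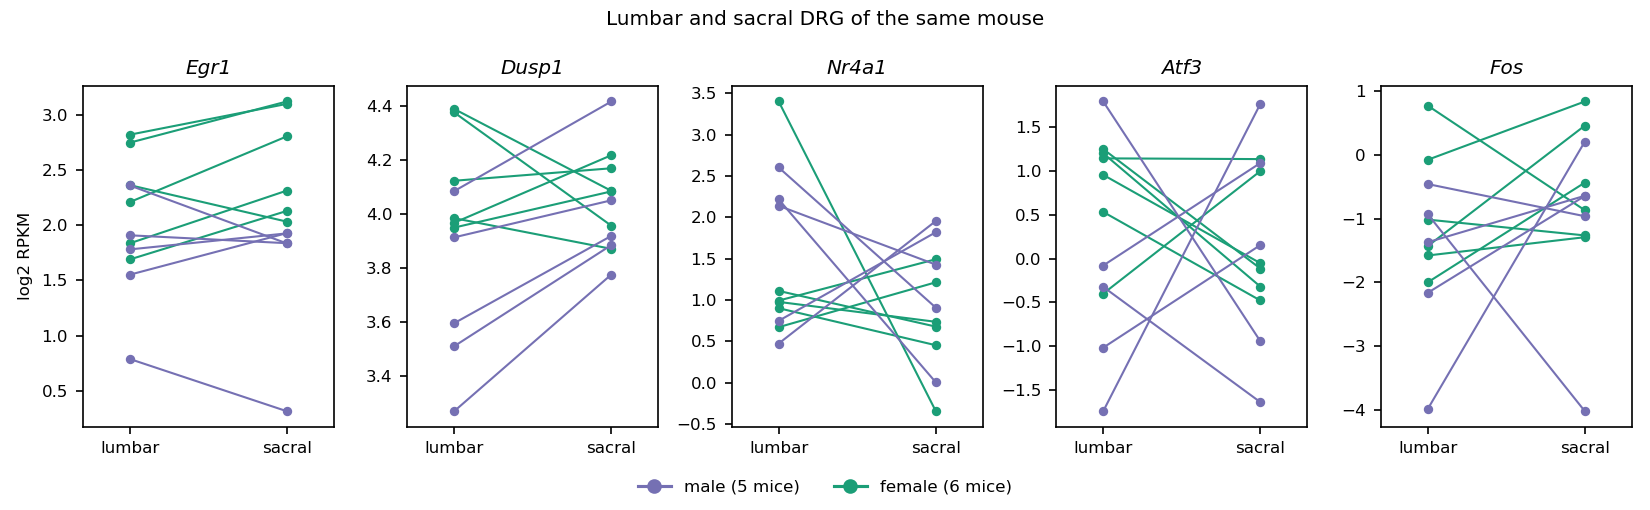
Lumbar and sacral log2 RPKM (vertical axis) of the 11 mice with both levels, each line a mouse and the color its sex. Lines for Fos, Atf3 and Nr4a1 cross in both directions, lines for Egr1 run nearly level, and Dusp1 rises in all 5 males.

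In each sex alone, 0 of the 10 genes were called (limma), against 0.648% of the genes tested with the filter and 0.225% without it in males, and 0.451% and 0.112% in females. In males the Dusp1 difference was 0.33 (SE 0.16, interval −0.0023 to 0.67, unadjusted p = 0.051, adjusted p = 0.45 in limma), with sacral higher in 5 of 5 mice. In females the Dusp1 difference was −0.02 (SE 0.14), higher in sacral DRG in 3 of 6 mice. The difference between those differences, tested as a level by sex interaction, was −0.35 (SE 0.21, interval −0.80 to 0.09, adjusted p = 1.00 in limma). No gene of the 10 was called for that interaction, and neither was any of the genes tested (0%), although 582 of 12650 had an unadjusted p under 0.05.

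Sex was compared at each level. Of the 10 genes 0 were called (limma), against 0.0474% of the genes tested with the filter and 0.0337% without it at the lumbar level, and 0.0791% and 0.0375% at the sacral level. Egr1 came nearest. In sacral DRG it was at 2.58 ± 0.45 in females (SD, n = 7) and 1.57 ± 0.70 in males (SD, n = 5), a difference of 1.01 (SE 0.33, interval 0.33 to 1.70, unadjusted p = 0.0054, adjusted p = 0.36 in limma). The groups did not overlap, but male mouse 14 sat far below the other sacral males, and without that mouse the difference was 0.70. Summed satellite glia markers also separated these groups, at 302 to 440 RPKM in sacral males and 221 to 298 in sacral females. Summed adipocyte markers did so the other way (1.05 to 6.00 and 6.40 to 38.7), and the other marker sums overlapped. The part of cell content in the Egr1 difference was not tested. In lumbar DRG the Egr1 difference was 0.61 (SE 0.32, interval −0.05 to 1.26), in the same direction.

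The Junb difference between lumbar female and lumbar male DRG was −2.06 (SE 0.87, interval −3.88 to −0.24, unadjusted p = 0.028, adjusted p = 0.83 in limma), and the sacral difference was −1.71 (SE 0.91, interval −3.60 to 0.19). The lumbar estimate includes a female blank. The Dusp1 difference was 0.39 in lumbar DRG (SE 0.16, interval 0.07 to 0.71, unadjusted p = 0.019, adjusted p = 0.60 in limma), and 0.04 in sacral DRG (SE 0.16). Atf3 differed by 1.05 (SE 0.59, interval −0.17 to 2.26) in lumbar and 0.16 (SE 0.62) in sacral DRG, and the Fos difference was 0.93 (SE 0.73) and 0.56 (SE 0.77). Unadjusted p-values under 0.05 were thus found for Junb and Dusp1 in lumbar and for Egr1 in sacral DRG, and none passed adjustment over all genes. All males were in batch 2; within that batch the Junb difference was −2.16 in lumbar and the Egr1 difference 1.00 in sacral DRG.

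The genes were also compared between batches. The authors had subtracted the batch difference of each gene from the deposited values, so it was measured on whole reads recovered from the table, before that subtraction. The measured difference need not equal the amount subtracted. For Fosb, Arc and Ier2, which had blank samples, −0.56, 0.43 and 2.52 were subtracted, beside 1.42, 1.63 and 3.62 measured on reads. In batch 1, 4 of the 10 genes were called higher (limma voom over 24445 genes, 4 groups and batch in the model) and none lower, where 36.0% of all genes were called, 29.1% higher and 6.81% lower, so the count for the 10 genes was near the share of all genes. With the filter on low values 2 of 5 were called (Jun and Nr4a1), where 44.3% of genes were. The median of all genes was itself shifted by 0.65 on the log2 scale, and that of genes passing the filter by 0.33.

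Junb showed the most complete separation. Its RPKM before the subtraction was 0.651 to 0.845 (median 0.744) in the 5 batch 1 samples and 0 to 0.376 (median 0.154) in the 19 batch 2 samples, and the ranges did not overlap. The log2 difference was 3.57 (SE 0.62, interval 2.28 to 4.85, adjusted p = 9.3e-05 in limma voom), which is 2.92 beyond the median of all genes. Nr4a1 was at 4.08 to 9.26 RPKM (median 5.04) in batch 1 and at 0.308 to 4.13 (median 0.844) in batch 2, where 1 of 19 samples exceeded the lowest batch 1 sample. The difference was 2.51 (SE 0.40, interval 1.67 to 3.34, adjusted p = 3.7e-05 in limma voom). Ier2 was at 0.299 to 0.881 RPKM (median 0.798) in batch 1, where every sample held at least 17 reads, and at 0 to 2.15 (median 0.0476) in batch 2, where 7 samples held none. Its difference was 3.62 (SE 1.14, interval 1.26 to 5.98, adjusted p = 0.017 in limma voom), and without female mouse 11 it was 3.39 (adjusted p = 0.094).

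Jun was at 9.48 to 15.1 RPKM in batch 1 and 5.19 to 13.6 in batch 2, a difference of 0.51 (SE 0.17, adjusted p = 0.026 in limma voom). That is 0.14 less than the median of all genes but 0.18 more than that of the genes passing the filter. The call was lost without female mouse 12 (0.44, adjusted p = 0.12 in limma voom) or female mouse 13 (0.46, adjusted p = 0.060), with estimates of similar size. Fos was at 0.177 to 1.26 RPKM in batch 1 and 0.0868 to 2.41 in batch 2, a difference of −0.90 (SE 0.70, interval −2.35 to 0.55). Atf3 differed by 0.33 (SE 0.50, interval −0.70 to 1.35), Egr1 by 0.47 (SE 0.26, interval −0.07 to 1.00) and Dusp1 by 0.17 (SE 0.15, interval −0.13 to 0.47), none of them called with all samples. Egr1 was called without female mouse 11 (0.81, adjusted p = 0.034). Arc (1.63, SE 1.10) and Fosb (1.42, SE 1.5) were not called. Single batch 1 mice moved these estimates: without 1 of the 3 they ranged from 0.093 to 0.81 for Egr1, −1.66 to −0.54 for Fos, 0.20 to 0.60 for Atf3, 0.023 to 0.26 for Dusp1 and 0.64 to 2.19 for Fosb. In the female samples alone 4 of the 10 genes were called (35.1% of all genes), and 3 to 4 were called when female mouse 11, 12 or 13 was left out (26.0%, 27.3% and 35.3% of all genes).

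**Figure D5:**
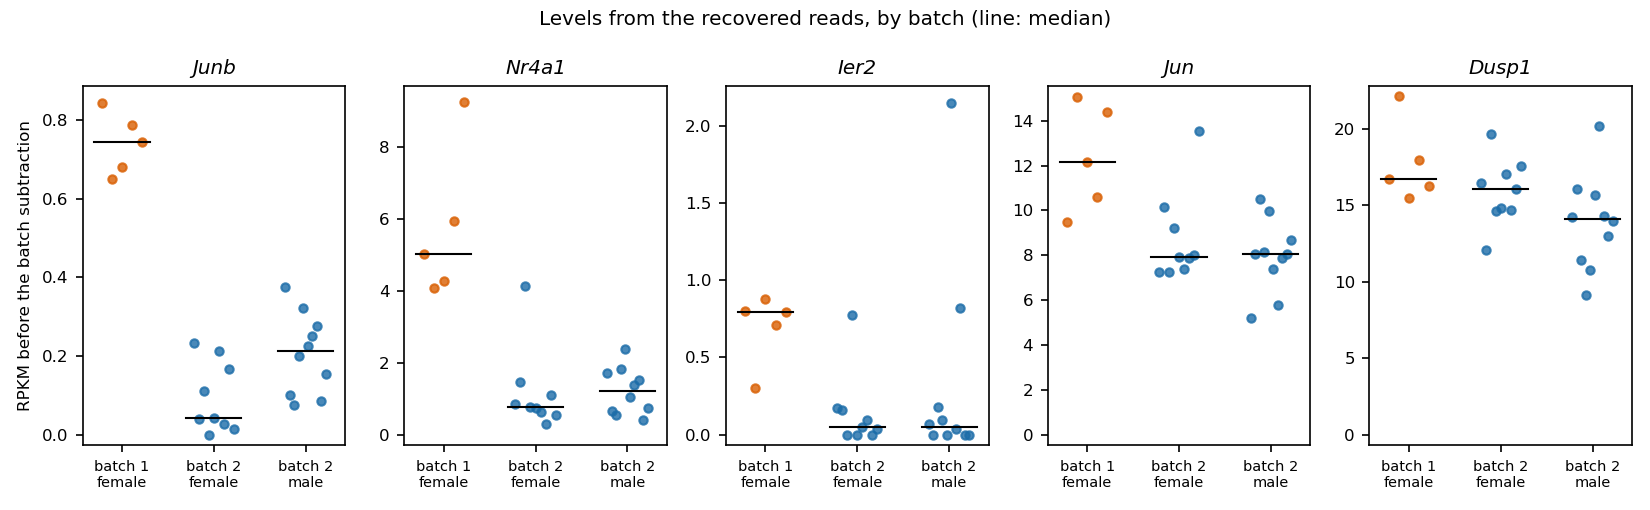
RPKM before the batch subtraction (vertical axis, 1 panel a gene with its own scale) in batch 1 females (5 samples), batch 2 females (9) and batch 2 males (10), with lines at the medians. Junb in batch 1 lies above all batch 2 samples, Nr4a1 and Ier2 above most, and the ranges of Jun and Dusp1 overlap.

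Other measures moved with batch as well. Over 11108 genes that passed the filter and had a GC value the batch difference rose with the GC content of the transcript (Spearman rho 0.415 across genes, which are not independent), from a median of −0.13 in the lowest of 10 equal GC classes to 0.93 in the highest. Nr4a1 (57.0% GC) was in the next to highest class, where 90% of genes differed by less than 2.03, and lay beyond that limit. Jun (55.5%), Egr1 (53.5%) and Dusp1 (54.9%) lay below the medians of their classes (0.61, 0.51 and 0.61). Junb (62.6% GC), Ier2 (60.9%) and Arc (59.0%) had a GC content in the range of the highest class but did not pass the filter, and are not set against its values. More genes had a value in batch 1 libraries (20508 to 21338) than in batch 2 (17527 to 18558) although their median depth was lower, and markers of most cell types included some called higher there, of those with recovered reads: 5 of 5 erythroid, 4 of 7 macrophage, 4 of 7 neuron, 3 of 7 satellite glia, 3 of 6 myelinating Schwann cell, 3 of 6 neutrophil, 2 of 6 fibroblast, 2 of 5 skeletal muscle, 1 of 8 endothelial and 0 of 5 adipocyte markers, beside 29.1% of all genes. In the same fit 1 neuron and 1 neutrophil marker were called lower. The part of GC content and cell content in the batch result was not tested, and mice, facility and library preparation cannot be told apart.

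Of 38 other immediate early genes with recovered reads, 10 were called higher in batch 1 and none lower (limma voom, no filter, median 0.78), a share below the 29.1% of all genes called higher. They included Gadd45b (5.50, SE 0.72), a stress-induced regulator of DNA demethylation and MAP kinase signaling, the AP-1 subunit gene Fosl2 (2.41, SE 0.40) and Egr3 (2.81, SE 1.05), which were picked after their values were seen. The amount the authors subtracted was 4.09 for Gadd45b (9 blank samples), 2.42 for Fosl2 (no blank) and only 0.13 for Egr3 (5 blank samples). Of 24 nerve injury genes 8 were called higher and 1 lower, near the share of all genes, among them the growth cone gene Gap43 (2.02, SE 0.18) and Sprr1a (3.67, SE 1.13), a cornified envelope protein gene induced in axotomized neurons. Of 10 heat shock genes 5 were called lower and 1 higher, and with the filter 5 of 9 were called lower, where 1589 of 12580 genes were. Hsp90aa1, a cytosolic chaperone, was lower (−1.37, SE 0.13), and Dnajb1, a co-chaperone of the DnaJ family, was higher (1.44, SE 0.29).

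The same lists were read between spinal levels, in the deposited values. Of 39 other immediate early genes 23 passed the filter and 0 were called with both sexes pooled (limma), 7 with an unadjusted p under 0.05 beside 1789 of the 12650 genes tested, and their median difference was 0.10 beside 0.01 for all genes. The smallest p was that of Egr2, which is also the master regulator of myelination in Schwann cells. Egr2 was at 0.62 ± 1.98 in sacral (SD, n = 12) and at 2.53 ± 0.70 in lumbar DRG (SD, n = 12), a difference of −1.87 (SE 0.56, adjusted p = 0.078 in limma), with sacral higher in 1 of 11 mice. In the same samples 6 of 7 myelinating Schwann cell markers were called lower in sacral DRG (median −1.22), and their summed RPKM was 2232 to 5078 in lumbar and 1096 to 2687 in sacral samples. The part of Schwann cell content in the Egr2 difference was not tested, and in bulk tissue fewer cells of a type and less RNA per cell cannot be told apart. Klf10, a zinc finger repressor, differed by 0.37 (SE 0.14, adjusted p = 0.22) and Sgk1, a serum and glucocorticoid induced kinase, by −0.54 (SE 0.22, adjusted p = 0.22), neither called by limma.

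Of 27 nerve injury genes 25 were matched and 16 passed the filter, and 3 rose in sacral DRG (limma), where 2.44% of all genes were called in either direction, with a median of 0.01 over the list. The count over all genes, 309, was 157 with mouse as a fixed block and 10 with a Schwann cell marker covariate, and the calls of these 3 genes were not recomputed in those fits. Adcyap1, which encodes the neuropeptide PACAP, was at 4.19 ± 0.45 in lumbar and 5.36 ± 0.33 in sacral DRG (SD, n = 12 each), a difference of 1.20 (SE 0.16, adjusted p = 4.9e-05 in limma) seen in 11 of 11 mice. Cacna2d1, the calcium channel subunit that binds gabapentin, differed by 0.62 (SE 0.11, adjusted p = 0.00082 in limma), in 11 of 11 mice. Gap43 differed by 0.56 (SE 0.14, adjusted p = 0.030 in limma), higher in 9 of 11 mice. All 3 genes are also expressed in uninjured sensory neurons. Atf3 and Jun, which belong to the injury response as well, were not called.

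Among 11 heat shock genes, 10 passed the filter and 0 were called between levels or sexes (limma), with 0 and 2 unadjusted p-values under 0.05 for level and for sex in sacral DRG, beside 1789 and 1104 of the 12650 genes tested. Of the 10, 0 were higher in females in sacral DRG (median −0.21) and 1 in lumbar DRG (median −0.13), beside medians of 0.01 for all genes. The genes share samples and are not independent. Between levels the constitutive chaperone gene Hspa8 differed by 0.14 (SE 0.09), the endoplasmic reticulum chaperone gene Hspa5 by 0.11 (SE 0.08) and stress-inducible Hspa1a by −0.70 (SE 0.50), the last being uncertain because the authors kept only reads that mapped uniquely, and much of Hspa1a is near-identical to its copy Hspa1b. Of 23 upstream kinases and factors 22 passed the filter and 0 were called between levels (limma), 4 with an unadjusted p under 0.05 (1789 of all 12650). Elk3, a ternary complex factor of the serum response factor, differed by 0.57 (SE 0.21, adjusted p = 0.17 in limma).

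Whether the genes rose and fell together from sample to sample was tested on deviations from the group means and batch. Over the 45 pairs of genes the median Pearson r was 0.06 (24 samples), from −0.50 to 0.51, with 25 positive. Unadjusted permutation p-values were under 0.05 for 7 pairs and none passed Benjamini-Hochberg adjustment over the 45 (smallest adjusted p 0.18 for r and 0.099 for Spearman's rho). The permutations took the 24 samples as independent, although 11 mice gave both levels. Egr1 and Dusp1 had the highest r, 0.51 (rho 0.52, permutation p = 0.011), which was 0.34 without the 2 samples farthest from the Egr1 median and 0.46 in batch 2. Fos and Atf3 had r 0.48 (rho 0.32, permutation p = 0.018), and r fell to 0.18 without the 2 farthest samples, so the relation rests on those samples. Jun and Junb ran in opposite directions (r −0.50, rho −0.57, permutation p = 0.013; −0.41 without the 2 farthest samples). Fos and Fosb, the closest paralogs, had r 0.25 (rho 0.27), and Fos and Nr4a1 had r 0.01 (rho −0.04).

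The lumbar and sacral samples of a mouse were also compared with each other. Over the 11 mice, the deviations of lumbar and sacral DRG correlated for Egr1 (r 0.80, rho 0.66, permutation p = 0.0024, adjusted over the 10 genes 0.024), but without the 2 mice farthest from the median r was 0.52 (permutation p = 0.15), so that this relation rests on them. For Nr4a1 the correlation was negative (r −0.77, rho −0.72, permutation p = 0.0059, adjusted 0.030), and r was −0.67 without the 2 farthest mice (permutation p = 0.051). In batch 2 alone (9 mice) r was 0.76 for Egr1 and −0.77 for Nr4a1. After adjustment over the 10 genes rho passed for neither (0.15 for both). The other 8 genes had r between −0.54 (Atf3) and 0.61 (Dusp1), none with an adjusted p below 0.15.

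The genes most like Fos in their deviations over the 24 samples, of 12116 with a value in every sample, were Galnt2 (r 0.77), Gm20388 (0.77), Myo6 (0.74), Sik3 (0.73) and Tmem38b (0.73). Those most like Atf3 included Gm6781 (0.77), Zfp191 (0.71), Accn2 (0.70) and Arhgef1 (0.70). None of these is among the listed immediate early or nerve injury genes. They were picked as the highest of 12116 correlations over 24 samples and were not tested. Fos deviations also had r 0.51 with the mean level of satellite glia markers and 0.48 with that of fibroblast markers. For neuron, Schwann cell, endothelial and macrophage markers r was −0.08 to 0.11, and none of these was tested.

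The effective depth was 27.6 to 44.6 M reads per library (median 30.5 in batch 1 and 40.0 in batch 2). All 10 neuronal markers were present, with a summed RPKM of 2010 to 4078, and their sum in the sacral sample of male mouse 14 was 2770, inside the 2474 to 2985 of the other sacral males. That library was among the lowest 5 of 24 for 7 of the 10 genes, with a mean standardized deviation of −1.05 beside −0.48 for the next lowest library. Skeletal muscle markers summed to 213, 122 and 230 RPKM in 3 lumbar female samples and to 90.6 in 1 sacral female sample, and to under 10 RPKM in the others. The macrophage markers Aif1 and C1qa had medians over all 24 samples under 0.1 RPKM, with blanks taken as 0.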

How the data were processed

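The study sequenced total RNA from 24 DRG samples after amplification (Ovation RNA-Seq v2, Nextera XT, HiSeq2500). The authors aligned reads to mm9 with Subread, counted reads per Ensembl gene with featureCounts and deposited log2 RPKM values, made with voom and TMM library sizes, from which the batch difference had been subtracted with removeBatchEffect. The submitters' processing notes name Subread 1.18 and 1.20.6, R 3.2.1 and 3.2.2, limma 3.26.9 and edgeR 3.12.1, and do not say which version served which samples.

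The 10 genes, the gene lists and the tests were chosen with earlier results of these data known. The rule for named genes was all 10 genes, and from each list the genes called between levels or sexes, otherwise the 3 with the smallest p between levels. Most alike patterns were the 5 genes with the highest Pearson r. The lists, each reported with its count, were other immediate early, nerve injury and heat shock genes, upstream kinases and factors, and cell type markers. Among marker lists, between levels 3 of 10 neuronal, 1 of 7 satellite glia and 6 of 7 myelinating Schwann cell markers were called lower, and 0 of the fibroblast, endothelial, macrophage, neutrophil, erythroid, skeletal muscle or adipocyte markers tested. No marker in these lists was called between sexes.

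Blank values were set to 0.5 reads. Models were fitted in limma 3.58.1 with statmod 1.5.0 in R 4.3.3, with 4 group means and batch, mouse as a random block (estimated correlation −0.017) and an intensity trend, to genes with a mean log2 RPKM of at least 0 in at least 1 group. Genes below the filter were read from a fit over all genes with a value. A gene was called at a Benjamini-Hochberg adjusted p of 0.05 or less, two-sided. The same mouse number in the titles gave the pairing. By those numbers 8 mice were female, whereas the study gives 7. Correlations used 100000 permutations, two-sided.

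Whole reads were recovered from the value of 1 read in each library (at least 96.4% of low values whole within 1e-05), for 24445 genes. The limma voom test on these reads, the batch comparison, the lumbar against sacral correlation, the GC comparison and their alternatives were chosen after seeing the data. GC content was that of the longest protein-coding transcript (GENCODE M1), held for 87.8% of genes tested. Amplified reads carry no molecular identifiers, so counting error is a lower limit on technical error. The tests were checked on simulated data. Some genes that the naming rules give are not reported here.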

Additional observations from a re-analysis of the deposited data

Results flagged for a closer look

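Values far from the rest of their group were sought with Dixon's ratio (the gap to the nearest sample over the range of the group) in 40 groups, 4 for each gene. The ratio passed the 95% critical value in 7 groups, where chance gives about 1 in 20. In the sacral sample of male mouse 14, Egr1 was low at 0.31 beside 1.84 to 1.93 in the other sacral males (ratio 0.942), and Fos was low at −4.02 with 8 reads (ratio 0.723). Arc was low in the sacral sample of male mouse 15 (ratio 0.763, 1 read). Blanks gave the other 4: Junb in lumbar female 22 (ratio 0.617), Arc in lumbar female 23 (0.676), Arc in sacral female 19 (0.584) and Ier2 in sacral female 22 (0.608). In 4 of the 7 groups the distance between the blank and the others therefore depends on the fill. That fill was 0.5 reads on the scale before the batch subtraction, which lies lower than 0.5 reads on the deposited scale for Junb, Arc and Ier2. The ratios were not computed with blanks set after the subtraction, so these flags may come from the fill.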

How the results depend on the processing

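None of the 10 genes was called between levels or sexes under any alternative tried (160 counts of 0, smallest adjusted p 0.165 in limma), and of 811 alternative values for 32 differences of single genes 757 kept their direction. The mouse numbers pair the samples, and with mouse as a fixed replicate block the Dusp1 level difference moved from 0.16 to 0.13; the block changed no call for the 10 genes. Some reversals were of large estimates with wide intervals: Fosb between levels (1.23), Arc between sexes in lumbar DRG (−1.14) and Ier2 in sacral DRG (−0.86). Between levels, with both sexes pooled, leaving blanks missing gave −0.44 for Fosb and −0.12 for Junb, and log2(RPKM + 1) gave −0.051 for Fosb. A Schwann cell marker covariate gave 0.023 for Jun, −0.12 for Egr1, 0.21 for Nr4a1, −0.25 for Ier2 and −0.025 for Dusp1, a neuron marker covariate 0.067 for Jun and 0.21 for Atf3, and array weights 0.24 for Atf3. In batch 2 alone the Dusp1 difference in females was 0.090. Between sexes in lumbar DRG, Fosb was at 0.18 without the batch term and 0.062 with the Schwann covariate, Jun at −0.032 with array weights, Arc at 0.26 with blanks missing, and Nr4a1 at 0.027 in batch 2 and 0.00173 with the Schwann covariate. In sacral DRG Atf3 was at −0.0137 in batch 2 and −0.0154 on log2(RPKM + 1), and Dusp1 at −0.00650 with the neuron covariate. The cause was not tested.

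Leaving out each mouse in turn, the differences whose range crossed 0 were, between levels, −0.070 to 0.84 for Fos (below 0 only without male 11), −0.099 to 0.035 for Jun, −0.25 to 0.41 for Junb, −0.48 to 0.30 for Atf3, and −0.0037 to 1.21 for Ier2, and −0.081 to 0.050 for Dusp1 in females. Lumbar sex differences were −1.41 to 0.86 for Fosb, −0.13 to 0.13 for Jun, −0.55 to 0.027 for Nr4a1 and −0.11 to 1.39 for Ier2, and sacral ones −0.14 to 0.92 for Fos, −0.27 to 0.58 for Atf3, −1.88 to 0.43 for Ier2 and −0.020 to 0.14 for Dusp1. Wide ranges that kept their sign included, between levels, −0.72 to −0.22 for Nr4a1, −1.65 to −0.41 for Arc and 0.51 to 1.78 for Fosb, and between sexes in lumbar DRG 0.38 to 1.27 for Fos, 0.38 to 0.78 for Egr1, 0.68 to 1.57 for Atf3, −1.78 to −0.16 for Arc and −2.68 to −1.30 for Junb. Between batches 3 to 4 genes were called without 1 batch 1 mouse. Without the 2 farthest samples 1 of 45 pairs passed adjustment, Junb and Nr4a1 (r 0.65, permutation adjusted p = 0.045; r 0.47 and rho 0.59 with all samples).

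Over all genes, the count between levels moved from 309 to 157 with the mouse block and to 10 with the Schwann covariate. In males it moved from 82 to 51 (block), 53 (batch 2), 52 (array weights), 1 (Schwann covariate) and 136 (voom), and to 51, 36, 33 and 34 without female 11, male 11, male 13 and male 15. In females it moved from 57 to 13 (block), 20 (batch 2), 35 (no trend), 135 (array weights), 4 (Schwann covariate) and 30 (no filter), and to 26, 29 and 20 without female 11, 19 and 23. Between sexes it moved from 6 to 3 in lumbar (filter at a mean of 1) and from 10 to 32 (no batch term) or 16 (log2(RPKM + 1)) in sacral DRG, and for the interaction from 0 to 1 on log2(RPKM + 1). Fosb, Arc, Ier2 and Junb had the fewest reads, a mean of 17.6 to 52.5 per library.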
